A study of Mus musculus with 10 samples.

Results

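Claudins are multi-span membrane proteins that polymerise into the strands of tight junctions, the seals that run between neighbouring epithelial cells. Barrier-forming claudins restrict the passage of ions between cells, pore-forming claudins let selected ions or water through, and the set of claudins a cell makes largely determines how tight and how selective its junctions are. In the exocrine pancreas such junctions keep the digestive secretions of acinar and duct cells inside the lumen, whereas endocrine islet cells sit apart from that lumen. The 10 claudins described here are Cldn1, Cldn2, Cldn3, Cldn4, Cldn7, Cldn8, Cldn10, Cldn11, Cldn12 and Cldn15, out of 19938 genes measured. They were listed because Cldn11 showed one of the largest and steadiest differences between the strains compared, so the strain differences of these 10 genes, and how many of them pass a threshold in the fit across all genes, are given as a description and not as tests of the claudins.

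RNA from isolated pancreatic islets was measured on 5 arrays of NZO mice (NZO/Hl, a diabetes-prone strain) and 5 arrays of C3H mice (C3HeB/FeJ). All mice were male, 6 weeks old and had eaten a diet with 45% of its energy as fat since weaning at day 21, and all islets had spent a night in culture at 10 mM glucose. The series was built to look for candidate genes in a mapped chromosomal interval, by asking which genes differ between C3H and NZO islets. Values are log2 expression values of 1 probe set per gene, so a difference of 1 is a 2-fold difference, and values of different probe sets cannot be ranked as levels of their genes. Each array's titles carry animal numbers, 1 for NZO replicate 4, a range for NZO replicate 5 and 2 for each other array, and the labels do not say whether animals were pooled.

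The islet label was borne out by the endocrine hormones. Ins2 (insulin) lay between 12.32 and 12.70 on the NZO arrays, against 12.22 to 12.39 on the C3H arrays, and Gcg (glucagon) between 13.01 and 13.30 on NZO arrays, against 13.19 to 13.34 on C3H arrays. Both sets of islets also carried RNA of other pancreatic cells, and more of it in NZO. The mean of 26 acinar cell markers (digestive enzymes and their regulators) was 9.63 to 10.20 on NZO replicates 1 to 3, 11.52 on NZO replicate 4 and 11.40 on NZO replicate 5, against 7.99 to 8.78 on the C3H arrays. The regulators Bhlha15, Ptf1a and Rbpjl did not share this excess, with NZO minus C3H differences of -0.18, 0.18 and 0.04. For 16 duct cell markers the mean was 8.58 to 8.90 on NZO replicates 1 to 3, 9.34 on replicate 4 and 9.33 on replicate 5, against 8.34 to 8.61 on the C3H arrays. NZO replicates 4 and 5 therefore stand apart, and results are also given without them. In whole islets, fewer cells of a type and less RNA per cell cannot be told apart.

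Cldn11, first described as a protein of oligodendrocyte myelin and also the claudin of the barrier between Sertoli cells of the testis and of the stria vascularis in the inner ear, separated the strains by far the most. Its value was 10.79, 11.001, 10.87, 10.76 and 11.32 on the NZO arrays, against 7.45, 7.45, 7.22, 7.56 and 7.17 on the C3H arrays. Every NZO array therefore lay more than 3 log2 units above every C3H array. The means were 10.95 ± 0.23 in NZO and 7.37 ± 0.17 in C3H (SD, n = 5 each), a difference of 3.58 with an SE of 0.11, or 11.9-fold. Among all 19938 genes this was rank 5 from the highest NZO excess. The pooled SD within strains was 0.20, against a median of 0.15 over all genes, and 77.7% of genes had a smaller one. Cldn11 had 1 single-symbol probe set, so these values rest on it alone. Whether its probes read the transcripts of both strains alike was not tested.

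Within NZO, Cldn11 was set beside the exocrine markers. Replicates 4 and 5, the arrays with the most acinar and duct marker RNA, read 10.76 and 11.32, which are the lowest and the highest NZO values, and their mean was 0.16 above that of the other three. Without these 2 arrays the difference was 3.52 with an SE of 0.11. With the mean of the duct markers as a covariate in the fit it was 3.55 (SE 0.17), and with the mean of the acinar markers 3.42 (SE 0.24). Across all 18 alternatives of the processing it stayed between 3.42 and 3.62.

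Since Cldn11 is a myelin gene elsewhere, markers of Schwann and myelin-forming cells were set beside it. The mean of the 10 measured markers was 7.01 to 7.12 on NZO arrays and 6.99 to 7.25 on C3H arrays, and their median difference was 0.01. Of these 10 markers, Cnp and Mbp, both myelin proteins, were higher in NZO (limma, adjusted p below 0.05). Ngfr, the low-affinity neurotrophin receptor of immature Schwann cells, was lower by the same test. Over all genes, 10.1% were called in either direction. Cnp rose by 0.42 (SE 0.08, adjusted p = 0.00302) and Ngfr fell by 0.57 (SE 0.11, adjusted p = 0.00271). With the acinar markers as a covariate the difference of Cnp was 0.30 (adjusted p = 0.861) and that of Ngfr -0.81 (adjusted p = 0.134). In that fit 1.04% of all genes were called.

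The 250 bases before the transcription start of Cldn11 are shown because this gene carries the largest claudin difference, and because its neighbours on the chromosome, described next, serve as its local comparison. The sequence and coordinates are those of RefSeq on GRCm38.p6 (chr3:31149670-31149919, plus strand), read 5′ to 3′ toward the start, and capitals mark any of 4 motifs searched on both strands.
Cldn11: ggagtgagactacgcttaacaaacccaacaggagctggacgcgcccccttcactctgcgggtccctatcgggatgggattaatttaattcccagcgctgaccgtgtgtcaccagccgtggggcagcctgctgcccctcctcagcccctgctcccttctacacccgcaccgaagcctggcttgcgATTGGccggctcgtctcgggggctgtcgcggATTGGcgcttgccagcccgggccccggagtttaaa
Of these bases 63.6% are G or C, against a median of 52.4% over all promoters of the table. The capitals mark a pair of CCAAT boxes on the reverse strand, whose first bases stand at -66 and -35 counted from the start. The motifs searched were TATAAA for the TATA box, found in 12.4% of 32851 promoters of this length, CCAAT for the CCAAT box in 33.8%, GGGCGG for the GC box in 32.7%, and AGATAA for the GATA site in 9.99%. The other three motifs have no match in this window, and none of the marked matches in the sequences shown overlap each other.

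None of the genes beside Cldn11 showed a difference of its size. Of the 5 tested genes on each side of Cldn11, none passed an adjusted p of 0.05 in limma, where 10.1% of all genes did. An unadjusted p under 0.05 was found for 3 of these 10 neighbours and for 4350 of all 19938 genes. The median difference of the neighbours was 0.11. The gene differences ran from -0.15 for 4930429B21Rik to 0.35 for Skil, a repressor of SMAD signalling. Skil averaged 10.06 ± 0.20 in NZO and 9.72 ± 0.19 in C3H (SD, n = 5 each; SE 0.11, limma adjusted p = 0.0667). It passed the threshold when NZO replicate 2 was left out, with a difference of 0.43 and an adjusted p of 0.0153. Zmat3, a p53 target, differed by 0.26 (SE 0.09, adjusted p = 0.109) with no overlap of the strains, as for 9.14% of all genes. For the rest of the neighbours the adjusted p lay at 0.215 or above, among them Prkci, the atypical protein kinase C of the polarity complex, at 0.08 (adjusted p = 0.731).

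**Figure D1:**
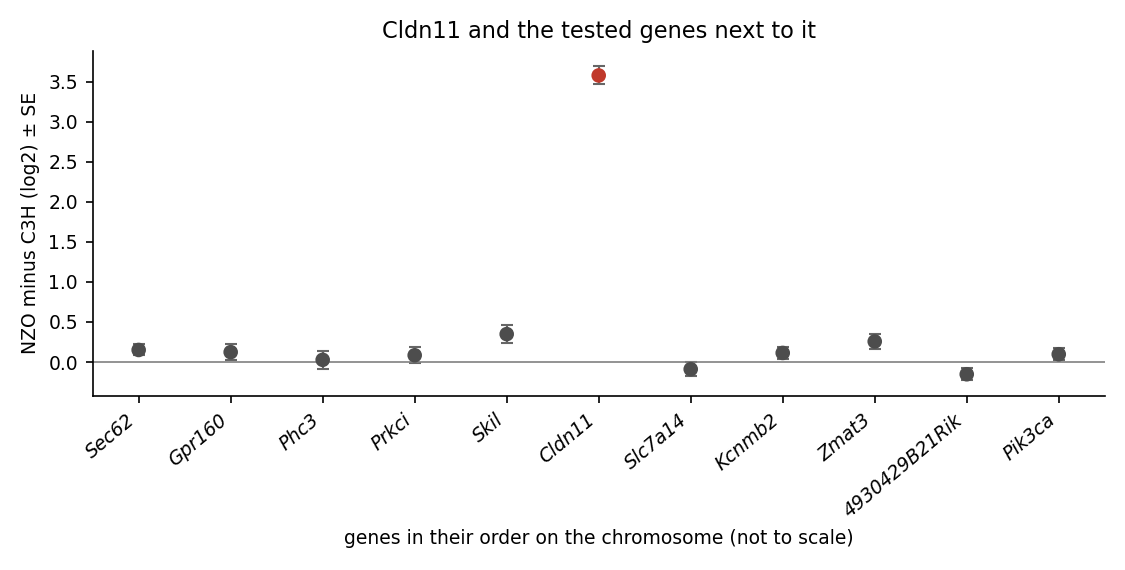
NZO minus C3H differences (log2) of Cldn11 and the 5 tested genes on each side of it, in chromosomal order, with bars for the SE of the limma difference. Cldn11 stands at 3.58, and its 10 neighbours lie between -0.15 and 0.35.

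The genes whose profile over the 10 arrays lay nearest that of Cldn11 were not claudins. Likeness was measured as the root mean square difference of log2 values after each gene's mean was removed. Clone-named or predicted genes were left out. Values were not scaled, so the strain difference, on which Cldn11 was chosen, weighs heavily in this measure. The ranking is therefore a description and not a test. The nearest gene was Pigr, the receptor that carries polymeric immunoglobulins across epithelia, at 0.54 log2 units, with 10.05 ± 0.25 in NZO and 7.42 ± 0.13 in C3H. Kcnip3, a calcium-binding protein of potassium channels, lay at 0.62, with 9.50 ± 0.25 in NZO and 7.05 ± 0.18 in C3H. Muc13, a membrane mucin, lay at 0.65 with a strain difference of 2.61. Reg1, a secreted regenerating protein made in acinar cells, lay at 0.67 with a difference of 2.89, and Klk1b5, a kallikrein whose near-identical relatives may share its probes, lay at 0.73 with a difference of 2.87. The listed claudin nearest by this measure was Cldn4, at 1.27, followed by Cldn2 at 1.29. A smaller value than that of Cldn4 was found for 114 genes, a count that takes in Cldn11 itself and clone-named or predicted genes. Within NZO, replicates 4 and 5 averaged 0.88 above the others in Cldn4 and 0.67 in Cldn2, against 0.16 in Cldn11.

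Among the barrier claudins, Cldn4 came next in size after Cldn11. It is a receptor for the enterotoxin of Clostridium perfringens and a sealing claudin of many epithelia. Its values were 11.04, 10.91, 11.05, 11.90 and 11.86 on the NZO arrays, against 10.25, 10.08, 10.23, 10.21 and 10.34 on the C3H arrays, with no overlap. The means were 11.35 ± 0.49 in NZO and 10.22 ± 0.09 in C3H, a difference of 1.13 (SE 0.18), or 2.19-fold. The 2 arrays with the most exocrine marker RNA were also the highest for Cldn4. Their mean exceeded that of the other three NZO arrays by 0.88, and without them the strain difference was 0.77 (SE 0.09). It was 0.49 (SE 0.13) with the duct markers as a covariate and 0.05 (SE 0.19) with the acinar markers, where overlap of the covariate with strain enlarges the SE by 2.12 times and, for the duct markers, by 1.48 times. The part of acinar or duct RNA in the difference of Cldn4 was not tested beyond these fits.

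Cldn3, the other enterotoxin receptor and a sealing claudin, differed little between the strains. It read 9.39, 9.36, 9.09, 9.38 and 9.31 in NZO, against 9.01, 9.06, 9.08, 8.95 and 9.07 in C3H, so the strains barely missed each other. The means were 9.31 ± 0.12 in NZO and 9.03 ± 0.05 in C3H, a difference of 0.27 (SE 0.08) or 1.21-fold. Without NZO replicates 4 and 5 the difference was 0.25 (SE 0.10), and it was 0.25 with either covariate as well.

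Cldn3 and Cldn4 lie close together in the genome, with starts 39.3 kb apart on chromosome 5, and their starts run on opposite strands. Their upstream sequences are shown so that the neighbouring pair can be compared: chr5:134985964-134986213 on the plus strand for Cldn3 and chr5:134946935-134947184 on the minus strand for Cldn4 (RefSeq, GRCm38.p6), with the GC box of each in capitals.
Cldn4: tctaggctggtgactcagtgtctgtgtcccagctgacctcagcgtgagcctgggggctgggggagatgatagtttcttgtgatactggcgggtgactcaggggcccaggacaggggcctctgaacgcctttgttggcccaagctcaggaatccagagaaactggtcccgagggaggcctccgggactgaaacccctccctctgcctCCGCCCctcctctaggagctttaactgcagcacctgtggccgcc
Cldn3: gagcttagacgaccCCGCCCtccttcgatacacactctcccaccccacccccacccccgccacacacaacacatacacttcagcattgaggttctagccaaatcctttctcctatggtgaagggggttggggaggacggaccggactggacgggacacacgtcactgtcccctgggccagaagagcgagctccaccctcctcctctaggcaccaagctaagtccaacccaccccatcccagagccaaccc
Both contain 1 GC box, its first base at -44 from the start of Cldn4 and at -236 from the start of Cldn3, on the reverse strand in each. Their G and C content was 62% and 60.8%. The remaining motifs have no match in either window.

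Cldn1, a claudin of the skin barrier, overlapped between the strains. It read 7.41, 6.61, 7.17, 7.27 and 7.14 in NZO, against 6.52, 7.08, 6.57, 6.08 and 6.42 in C3H. NZO replicate 2 and C3H replicate 2 crossed over. The means were 7.12 ± 0.30 in NZO and 6.54 ± 0.36 in C3H, a difference of 0.59 (SE 0.17) or 1.50-fold. It was 0.53 (SE 0.20) without NZO replicates 4 and 5, 0.31 (SE 0.23) with the duct markers as a covariate and 0.39 (SE 0.36) with the acinar markers.

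Cldn7, which besides tight junctions also sits along the lateral membrane in complex with EpCAM, and Cldn8, which pairs with Cldn4 in the collecting duct of the kidney, overlapped between the strains. Cldn7 read 9.74, 9.95, 9.75, 9.68 and 9.91 in NZO, against 9.87, 10.00, 10.02, 9.55 and 9.91 in C3H, with a difference of -0.06 (SE 0.10). Cldn8 read 5.02, 5.05, 4.89, 5.44 and 5.49 in NZO, against 5.08, 4.86, 4.94, 5.27 and 5.06 in C3H, and its difference was 0.14 (SE 0.12). On every array Cldn8 lay below the 25th percentile of that array's probe sets, which ran from 5.65 to 5.85, so its values may hold little signal and no fold is given. Even so, NZO replicates 4 and 5 exceeded the other three NZO arrays by 0.47 on average. The Cldn8 difference turned to -0.05 (SE 0.10) without them, to -0.12 (SE 0.16) with the duct markers as a covariate and to -0.41 (SE 0.20) with the acinar markers.

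The pore-forming claudins were led by Cldn2, which makes cation- and water-permeable channels in leaky epithelia such as the kidney proximal tubule. Its values were 7.52, 7.09, 7.35, 7.93 and 8.05 on the NZO arrays, against 6.40, 6.75, 6.47, 6.41 and 6.59 on the C3H arrays, with no overlap. The means were 7.58 ± 0.40 in NZO and 6.52 ± 0.15 in C3H, a difference of 1.06 (SE 0.16) or 2.09-fold. NZO replicates 4 and 5 were again the highest, 0.67 above the mean of the others. The difference was 0.79 (SE 0.12) without them, 0.52 (SE 0.13) with the duct markers as a covariate and 0.33 (SE 0.25) with the acinar markers. The upstream sequence of Cldn2 (chrX:139800558-139800807, plus strand) is shown because it alone among the 13 claudin promoters of the RefSeq table holds the TATA box searched for, in capitals with its first base at -35 from the start.
Cldn2: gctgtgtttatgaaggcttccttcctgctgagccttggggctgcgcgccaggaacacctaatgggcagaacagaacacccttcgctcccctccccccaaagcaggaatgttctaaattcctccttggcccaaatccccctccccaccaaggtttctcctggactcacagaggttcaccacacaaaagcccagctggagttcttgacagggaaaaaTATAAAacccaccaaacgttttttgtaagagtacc
Its G and C content is 52%. A match is a description of the letters, and the strain difference of Cldn2 was not tested against it.

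Cldn10 makes separate anion- and cation-selective pores from alternative first exons, and RefSeq gives 2 starts, 67.1 kb apart on chromosome 14. Their sequences are shown because they differ most in composition among the claudin promoters of one gene: chr14:118787621-118787870 for the upstream start and chr14:118854700-118854949 for the downstream start, both on the plus strand, with motifs in capitals.
Cldn10 upstream: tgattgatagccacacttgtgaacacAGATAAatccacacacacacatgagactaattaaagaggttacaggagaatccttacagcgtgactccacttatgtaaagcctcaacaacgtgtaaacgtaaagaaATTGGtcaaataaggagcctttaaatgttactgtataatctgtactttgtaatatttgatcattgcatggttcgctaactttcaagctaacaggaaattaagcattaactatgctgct
Cldn10 downstream: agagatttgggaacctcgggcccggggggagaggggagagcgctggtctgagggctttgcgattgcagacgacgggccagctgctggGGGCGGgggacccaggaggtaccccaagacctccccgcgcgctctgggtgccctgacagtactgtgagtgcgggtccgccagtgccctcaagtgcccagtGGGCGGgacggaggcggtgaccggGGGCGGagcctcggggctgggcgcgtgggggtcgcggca
The upstream window is 36% G and C and holds 1 CCAAT box at -118 and 1 GATA site at -224 from the start. The downstream window is 72.4% G and C and holds 3 GC boxes at -163, -63 and -39 from the start. Which start the array's probes report cannot be read from the probe set table.

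The brighter of the 2 Cldn10 probe sets read 6.25, 5.86, 6.16, 6.58 and 6.44 in NZO, against 5.63, 5.75, 5.67, 5.86 and 5.63 in C3H. The lowest NZO array and the highest C3H array both round to 5.86, so the strains just fail to overlap. The means were 6.26 ± 0.27 in NZO and 5.71 ± 0.10 in C3H, a difference of 0.55 (SE 0.12), and 3 of 5 C3H arrays lay below the array's 25th percentile, so no fold is given. The dimmer probe set differed by 0.38, with means of 6.00 ± 0.19 in NZO and 5.62 ± 0.09 in C3H. NZO replicates 4 and 5 lay 0.41 above the other three on the brighter probe set. Without them the difference was 0.38 (SE 0.11), and with the duct or the acinar markers as a covariate it was 0.24 or 0.04.

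Cldn15, a cation pore of the small intestine, ran the other way within NZO. It read 7.03, 7.02, 7.09, 6.90 and 6.87 in NZO, against 6.79, 6.74, 6.80, 6.85 and 6.71 in C3H, so that every NZO array lay above every C3H array by a narrow margin. The means were 6.98 ± 0.09 in NZO and 6.78 ± 0.05 in C3H, a difference of 0.20 (SE 0.07) or 1.15-fold. Here NZO replicates 4 and 5 were the lowest of their strain, 0.16 below the others, and the difference was 0.27 (SE 0.08) without them, 0.32 (SE 0.10) with the duct markers as a covariate and 0.37 (SE 0.15) with the acinar markers. Cldn12, an unusual claudin that lacks the usual binding motif for scaffold proteins, read 9.37, 9.16, 9.30, 9.40 and 9.15 in NZO, against 9.12, 9.29, 9.19, 8.85 and 9.25 in C3H, with a difference of 0.14 (SE 0.09) and overlapping strains.

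**Figure D2:**
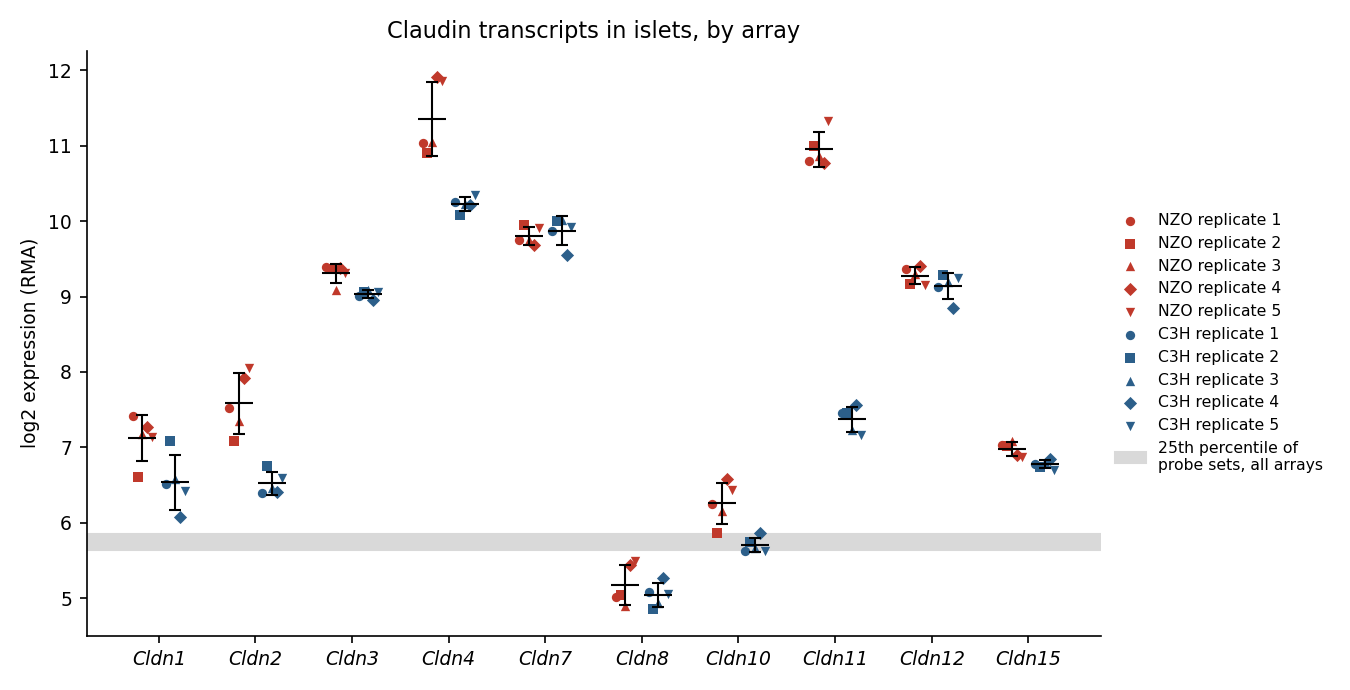
Log2 values of the 10 claudins on each array, NZO to the left and C3H to the right in each panel, with the mean and SD of 5 arrays. Cldn11 separates the strains with a gap of more than 3 log2 units, while Cldn1, Cldn7, Cldn8 and Cldn12 overlap.

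**Figure D3:**
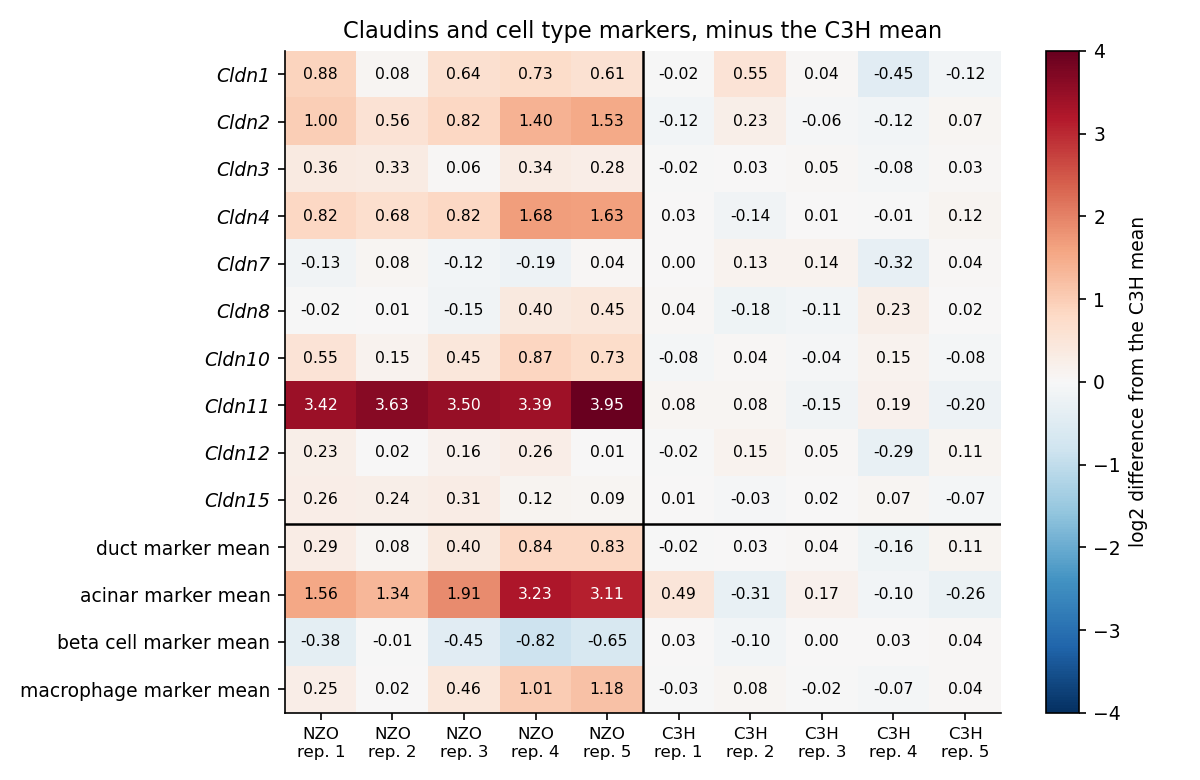
Each claudin's difference (log2) from its own mean over the C3H arrays, NZO arrays left of C3H arrays. The bottom rows show the means of the duct, acinar, beta cell and macrophage markers in the same way. NZO replicates 4 and 5 stand higher than the other NZO arrays in Cldn2, Cldn4, Cldn8 and Cldn10. In Cldn11, replicate 5 is the highest NZO array and replicate 4 the lowest.

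Over the 10 claudins, 9 of the differences were positive and the median was 0.41, against -0.02 over all genes. In the fit across all genes, 6 of the 10 had an adjusted p below 0.05, all higher in NZO: Cldn1, Cldn2, Cldn3, Cldn4, Cldn10 and Cldn11. The same test called 10.1% of all genes in either direction and 5.47% as higher in NZO. The strains did not overlap for 6 of 10 claudins (Cldn2, Cldn3, Cldn4, Cldn10, Cldn11 and Cldn15), with NZO above C3H in all 6, as they did not for 9.14% of all genes in either direction and 4.96% with NZO above. Because the list was drawn up around this very comparison, the counts describe the list and are not evidence about claudins.

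The count depends on the arrays and covariates that enter the fit. Without NZO replicates 4 and 5, 3 of 10 claudins passed (Cldn2, Cldn4 and Cldn11), where 5.54% of all genes did. With C3H replicate 4 left out as well, 5 passed, where 8.79% of all genes did. With the duct markers as a covariate 2 passed (Cldn2 and Cldn11), where 3.16% of genes did, and with the acinar markers 1 passed (Cldn11), where 1.04% of genes did. With each array left out in turn, 4 to 6 passed. Cldn2, Cldn4, Cldn10 and Cldn11 passed in all 10 of these fits and Cldn1 and Cldn3 in 2 each, Cldn1 without NZO replicate 2 or C3H replicate 2 and Cldn3 without NZO replicate 3 or C3H replicate 4. Cldn15 passed in 1, without C3H replicate 4.

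**Figure D4:**
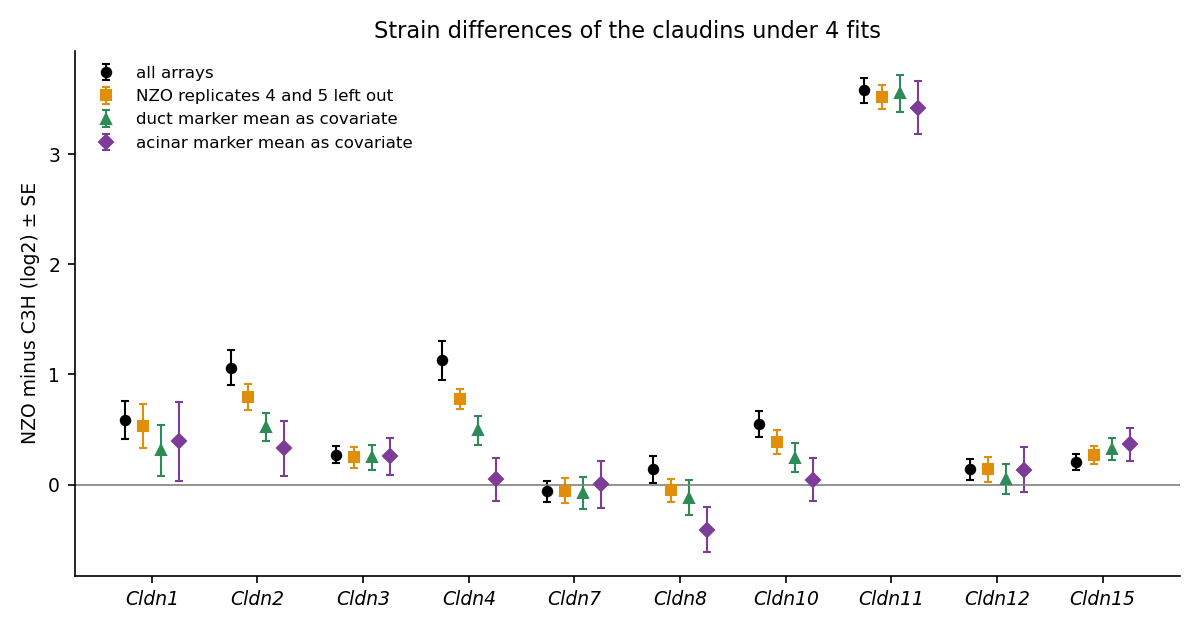
NZO minus C3H difference (log2) of each claudin with all arrays, without NZO replicates 4 and 5, and with the duct or acinar marker mean as a covariate, with bars for the SE. Cldn11 lies between 3.42 and 3.58 in these fits, whereas Cldn4 moves between 1.13 with all arrays and 0.05 with the acinar markers.

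The other claudins and claudin domain genes were a list of 26. Of 19 measured, 2 passed the limma threshold, where 10.1% of all genes did in either direction. Cldn23, found on the luminal side of the gut epithelium, was higher in NZO and Cldn6, a claudin of embryonic epithelia, lower. The median difference of the 19 was -0.07. Cldn23 averaged 7.09 ± 0.16 in NZO and 6.57 ± 0.11 in C3H, with no overlap, and rose by 0.53 (SE 0.09, limma adjusted p = 0.00127). Its difference was 0.49 (SE 0.19, adjusted p = 0.506) with the acinar markers as a covariate. Cldn6 read 7.97, 7.95, 7.84, 8.29 and 8.48 in NZO, against 8.79, 8.46, 8.74, 8.73 and 8.67 in C3H. Only NZO replicate 5 reached above the lowest C3H array. The means were 8.11 ± 0.27 in NZO and 8.68 ± 0.13 in C3H, a difference of -0.57 (SE 0.12, adjusted p = 0.00576), or 1.49-fold lower. The difference of Cldn6 was -1.17 with the acinar markers as a covariate (adjusted p = 0.00365) and -0.76 without NZO replicates 4 and 5 (adjusted p = 0.00031).

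Partners of claudins in the junction were counted in the same way. Of 15 other tight junction membrane proteins, 1 fell and none rose (median 0.02), where 10.1% of all genes were called in either direction. That gene was Jam2, a junctional adhesion molecule of endothelium, at 9.05, 7.79, 8.55, 9.14 and 8.80 in NZO, against 9.49, 9.68, 9.51, 9.32 and 9.81 in C3H. All NZO arrays lay below all C3H arrays, with a difference of -0.90 (SE 0.20, limma adjusted p = 0.0104), or 1.86-fold lower. With the acinar markers as a covariate it was -1.55 (adjusted p = 0.0831). Occludin (Ocln), the companion of claudins in the strand, averaged 9.14 ± 0.29 in NZO and 8.68 ± 0.30 in C3H and differed by 0.46 (SE 0.15, adjusted p = 0.0763). The adhesion molecule F11r differed by -0.05 (SE 0.09, adjusted p = 0.833).

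Of 26 scaffold and polarity genes measured, 3 rose and 1 fell (median 0.05), where 10.1% of all genes were called in either direction and 5.47% as higher in NZO. Magi1, a scaffold with guanylate kinase and PDZ domains, averaged 8.44 ± 0.20 in NZO and 7.84 ± 0.12 in C3H and rose by 0.60 (SE 0.10, limma adjusted p = 0.0012). Its difference was 0.58 (SE 0.22, adjusted p = 0.433) with the acinar and 0.50 (SE 0.14, adjusted p = 0.0896) with the duct markers as a covariate. Amotl1, an angiomotin-like protein of the junction, averaged 9.11 ± 0.13 in NZO and 9.74 ± 0.11 in C3H and fell by 0.64 on the log2 scale (SE 0.08, adjusted p = 0.000203). Cingulin (Cgn), which links the junction to actomyosin, rose by 0.29 (SE 0.08, adjusted p = 0.0309), and Mpp5, the scaffold of the Crumbs polarity complex, by 0.38 (SE 0.11, adjusted p = 0.038). The adjusted p of Cgn and Mpp5 lay close to the threshold. With each array left out in turn Cgn passed in 4 of 10 fits, not without NZO replicate 3, 4 or 5 or C3H replicate 1, 3 or 5, and Mpp5 in 2, without NZO replicate 2 or C3H replicate 2, with differences of 0.26 to 0.34 for Cgn and 0.31 to 0.45 for Mpp5. Without NZO replicates 4 and 5 together the difference of Cgn was 0.25 (adjusted p = 0.213) and that of Mpp5 0.31 (adjusted p = 0.221). With the acinar or the duct markers as a covariate, Cgn gave 0.21 or 0.17 (adjusted p = 0.999 and 0.676) and Mpp5 0.14 or 0.15 (adjusted p = 0.999 and 0.813). Scaffolds that tie claudins to actin gave -0.14 for Tjp1 (SE 0.08, adjusted p = 0.361) and 0.15 for Tjp3 (adjusted p = 0.251).

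Among 21 genes of adherens junctions and desmosomes, 1 passed the test, where 10.1% of all genes did, and the median was 0.16. Cdh1 (E-cadherin), the adhesion molecule of epithelial cells, averaged 11.51 ± 0.16 in NZO and 11.02 ± 0.07 in C3H and rose by 0.49 (SE 0.08, limma adjusted p = 0.00171). With the acinar markers as a covariate its difference was 0.19 (adjusted p = 0.999), and with the duct markers 0.29 (adjusted p = 0.236). Among the duct markers, 6 of 16 passed as higher in NZO and none as lower, with a median of 0.46, where 5.47% of all genes passed as higher. The duct markers did not all move alike. A positive difference was found for 13 of the 16, while Tspan8 gave -0.32, Bicc1 -0.29 and Slc4a4 -0.25 (adjusted p = 0.237, 0.149 and 0.156). Krt7 differed by 0.02. Of the duct markers that passed, Krt19, a cytokeratin of duct epithelium, averaged 9.46 ± 0.69 in NZO and 7.91 ± 0.11 in C3H and rose by 1.55 (SE 0.24, adjusted p = 0.000801). Krt18, a cytokeratin of simple epithelia, rose by 0.72 (SE 0.12, adjusted p = 0.00141). Their differences were 0.03 and 0.09 with the acinar markers as a covariate (adjusted p = 0.999 for both).

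**Figure D5:**
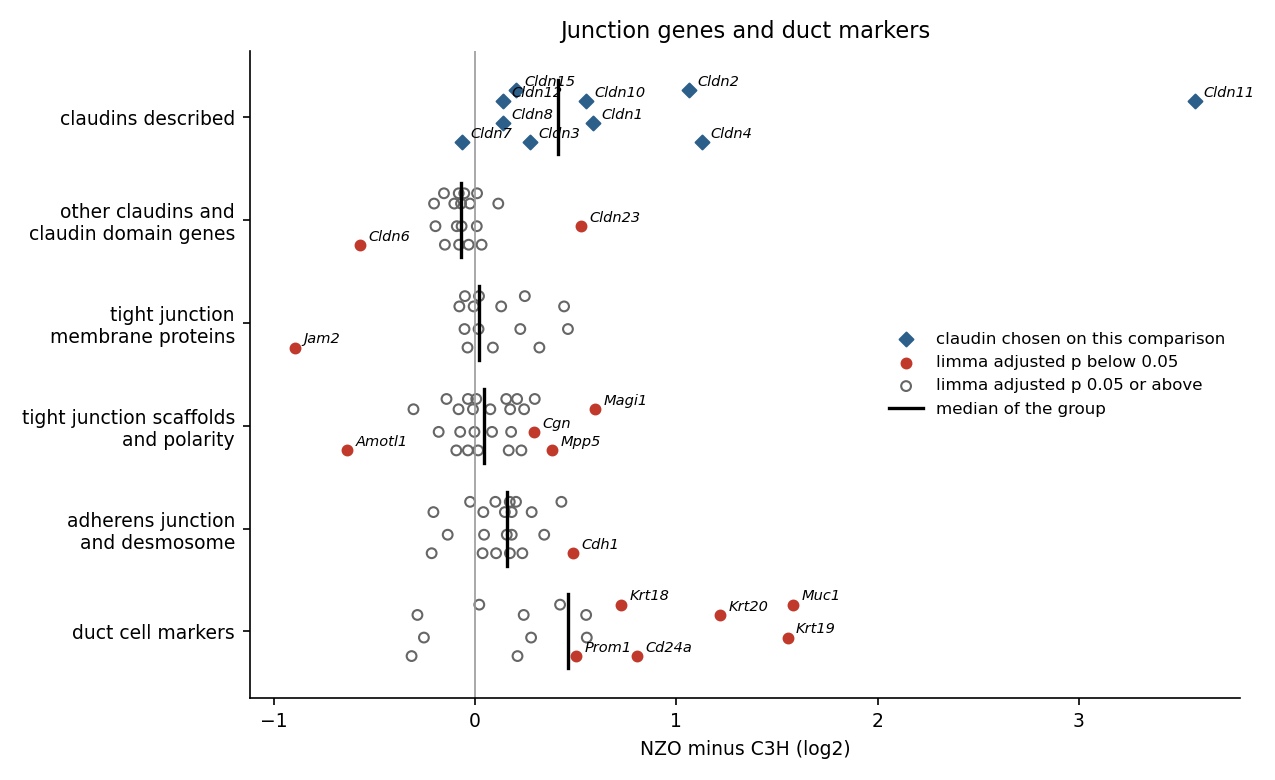
NZO minus C3H difference (log2) of every measured gene in 5 lists of junction genes and in the duct markers, with filled red points for a limma adjusted p below 0.05, open points for the rest, diamonds for the claudins chosen on this comparison and a black bar at each median. Cldn11 stands alone at 3.58, and the medians of the lists other than the claudins and duct markers lie between -0.07 and 0.16.

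Some markers of the other cell types also differed between the strains (limma, adjusted p below 0.05 for each count). Over all genes, 5.47% were called as higher in NZO, 920 of 19938 as lower, and 10.1% in either direction. Acinar markers were higher in NZO in 23 of 26 (median 2.21), among them the digestive proteases Try4, at 3.94, and Prss3. The 3 not called were the regulators Bhlha15, Ptf1a and Rbpjl (adjusted p = 0.348, 0.458 and 0.907). Prss3 averaged 10.81 ± 1.82 in NZO and lay below the 25th percentile of the array on all 5 C3H arrays, so no difference is given. Delta and PP cell markers were lower in 6 of 7 (median -0.59), among them Rbp4, the retinol carrier, at -1.29, and Sst, somatostatin, at -0.75. Beta cell markers were lower in 4 of 11 (median -0.27), among them the zinc transporter gene Slc30a8 at -1.10 and Ucn3, a peptide of mature beta cells, at -1.12. Alpha cell markers were lower in 2 of 5 (median -0.18), Slc7a2 at -0.57 and Irx1 at -0.36. Macrophage markers were higher in 6 of 13 (median 0.67), including Fcer1g at 0.67 and Csf1r, the receptor for a macrophage growth factor, at 0.76. Endothelial markers were higher in 2 of 12 (median 0.22), Emcn at 0.51 and Eng at 0.39, and stellate cell and fibroblast markers in 2 of 13 (median 0.28), Pdgfra at 1.25 and Rgs5 at 0.83. Of 7 mesothelial markers, Msln rose by 1.12 (SE 0.14, adjusted p = 0.000111), with 8.39 ± 0.34 in NZO and 7.27 ± 0.14 in C3H, and the median was -0.03. With 1 array left out in turn, Irx1 lost its call without NZO replicate 2, 3 or 4 or C3H replicate 2, 3 or 4 (adjusted p up to 0.093), Eng without C3H replicate 1 (0.0525) and Rgs5 without NZO replicate 5 or C3H replicate 1 or 3 (up to 0.0527). With the acinar markers as a covariate, the differences were -0.18 for Slc30a8, -0.09 for Ucn3, -0.01 for Slc7a2 and -0.36 for Irx1. Those of Rbp4 and Sst were -0.81 and -0.31. Emcn gave 0.37, Eng 0.10, Rgs5 0.01 and Msln 1.69, and Pdgfra, Fcer1g and Csf1r turned negative. Of all these genes, Msln alone kept an adjusted p below 0.05 (0.00236). In that fit 1.04% of all genes were called, and overlap of the covariate with strain enlarges the SE by 2.12 times. A lost call there need not mean a lost difference. The part of these cell types in the claudin differences was not tested beyond the acinar and duct fits above.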

How the data were processed

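Total RNA of isolated islets was hybridised to whole-transcript mouse gene arrays (Affymetrix), 5 per strain. The deposited log2 values, 1 per probe set and array, come from the authors' RMA run in Expression Console, as the submitters' processing notes state. The build, the probe set library and the version of the software were not given in the sources used here. RMA forces a similar distribution on every array and gives no detection call. RNA had an integrity number above 8 and 150 ng was used per array, per the labels' protocols. The labels give no batch, and replicate numbers, given by accession order, do not pair samples. The titles carry different animal numbers on every array, and whether animals were pooled is not stated.

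Of 35556 probe sets, 21789 had exactly 1 gene symbol, 1621 several and 12146 are unnamed here; 21698 matched RefSeq genes by Entrez ID. The probe set brightest by mean was kept for each of 19938 genes (999 genes had several), with no filter on dim genes. Array medians were 6.93 to 7.05. Strain differences (NZO minus C3H) were fitted in limma 3.58.1 (lmFit, eBayes; R 4.3.3). P-values are two-sided and adjusted by the Benjamini-Hochberg method across every gene, with a threshold of 0.05; the script was tested on simulated data. SDs are over 5 arrays. A number of arrays this small limits precision.

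The claudins and all gene lists were chosen with earlier results of these data known. Named were every claudin of the list, up to 4 called genes of each other junction list with the smallest p, Ocln, Tjp1, Tjp3 and F11r whatever their values, up to 2 called genes of each cell marker list, 5 tested genes on each side of Cldn11 and the 5 genes most like it. Alternatives were dim-gene filters, the mean of probe sets, centred arrays, the marker means as covariates and arrays left out; 1 was chosen after seeing the data, leaving out C3H replicate 4 with NZO replicates 4 and 5. Promoters are the 250 bases before each RefSeq start, given for 9 of 10 claudins; Cldn8 was not matched.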

Additional observations from a re-analysis of the deposited data

Results flagged for a closer look

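In 7 of 102 strain groups of named genes, 1 array lay far from the other four by Dixon's 95% criterion (a gap above 0.710 of the range for 5 arrays), which chance gives in about 1 of 20 groups. Among the 20 claudin groups it was 1, Cldn3 on NZO replicate 3 at 9.09, with the others between 9.31 and 9.39. Of the 7 arrays, 4 were C3H replicate 4, whose distribution over all probe sets also stood apart from that of the other arrays. Ocln read 8.16 there, with the others between 8.72 and 8.93. F11r read 8.99, against 9.26 to 9.33 on the others, Phc3 8.01, against 8.49 to 8.56, and Zmat3 8.10, against 8.43 to 8.53. Phc3 on NZO replicate 1 read 8.68, with the others between 8.33 and 8.42. Msln on NZO replicate 4 read 7.78, with the others between 8.49 and 8.61.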

How the results depend on the processing

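No paired analysis was possible because replicate numbers follow deposition order and pair nothing. Results were recomputed under 18 alternatives, except that a filter on dim genes gave no value for the genes it removed (Cldn8 and Cldn10 under both filters, and Cldn1, Cldn2, Cldn15, Cldn23, Gpr160 and 4930429B21Rik under the median filter). Of the claudin differences, 160 values moved by less than the spread between arrays and 13 by more, and those of Cldn11 (3.42 to 3.62) all moved by less. The count of claudins past the threshold fell to 3 after a filter at the median brightness (5 of the 10 remained tested), 1 with the acinar markers as a covariate, 2 with the duct markers and 3 without NZO replicates 4 and 5. The count over all genes was 208, 631 and 1105 with the acinar markers, the duct markers and without those arrays, and 1441 to 2701 with each array left out. Other claudins gave 1 call with the median filter and 1 with the acinar markers. Tight junction membrane proteins gave 2 calls with the filter at the 25th percentile, 2 with the median filter, 0 with the acinar markers and 2 with the duct markers, and 1 to 3 with each array left out. Scaffolds gave 1 with the acinar and 1 with the duct markers, and 2 to 6 with arrays left out. Adherens junction genes gave 2 with the 25th percentile filter, 3 with the median filter, 2 without NZO replicates 4 and 5, 2 with C3H replicate 4 left out too, and 1 to 4 with each array left out. Duct markers gave 0 with the acinar and 2 with the duct markers. In the latter fit the covariate is the mean of these same genes, so a lower count was built in. Neighbours of Cldn11 gave 1 (Skil, adjusted p = 0.0474 in limma) with the median filter and 0 to 1 with each array left out. With the acinar markers as a covariate, Pdgfra (-0.079), Fcer1g (-0.05) and Csf1r (-0.22) reversed. Among other named genes 658 values kept their side of the threshold, 72 lost the call and 2 gained it. The 658 include changes of sign in genes called in neither fit. For example, Slc7a14 differed by -0.09 with all arrays and by 0.07 with the acinar markers as a covariate. The cause of these changes was not tested. Dim probe sets, Cldn8 on all arrays and Cldn10 in C3H, limit what their values show.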

Other observations

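The claudins differed in how much they varied between arrays of a strain. Cldn15 had a pooled SD within strains of 0.08 log2 units, smaller than all but 4.89% of genes, and Cldn3 of 0.10 (12.9%). Cldn4 and Cldn2 were among the most variable, with 0.35 and 0.30, where 97.7% and 95.8% of genes had a smaller SD, and so was Cldn1 at 0.33 (97.1%). For Cldn4 most of that spread lay in NZO, with an SD of 0.49 there and 0.09 in C3H.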
